A study of Mus musculus with 2 samples.

Results

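The mitochondrial genome of the mouse holds 37 annotated genes, and all 37 were taken here by their symbols, which start with mt-, out of 55536 annotated genes in the tables. They are 13 mRNA genes, 2 rRNA genes and 22 tRNA genes, and they are the only genes annotated on chromosome M. Levels were compared by class, by strand and by quantification. The measurements were total RNA-seq of gastrocnemius, a calf muscle, from male B6CASTF1/J mice aged 14 days. There were 2 biological replicate libraries of 1 group, with 300 ng of RNA per library and no treatment, genotype or age to compare. The labels mention 3 males and give both libraries 1 donor identifier, so whether the libraries come from separate animals is not settled, and every error below measures the spread between these 2 libraries. B6CASTF1/J mice are hybrids of C57BL/6J and CAST/EiJ, alleles of the parent strains were not separated, and the mitochondrial sequence these animals carry was not read here.

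Mitochondrial DNA is transcribed from both strands into long RNAs that span many genes. tRNAs lie between most mRNAs and rRNAs, and cutting them out releases the RNAs on either side. The heavy-strand transcript carries both rRNAs, most tRNAs and all mRNAs except mt-Nd6, and the light-strand transcript carries mt-Nd6 and the other tRNAs. All 13 mRNAs encode subunits of the respiratory chain and of ATP synthase, the enzymes that make most of the ATP in an oxidative muscle fibre. The nuclear genome also holds insertions of mitochondrial DNA, and those that are nearly identical look to a read counter like the mitochondrial genes themselves.

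The gene tables held 40825600 and 37329000 expected counts in replicates 1 and 2, of which added ERCC control RNAs took 0.731% and 0.881%. The tissue label was checked against markers. The 6 skeletal muscle markers had 379 to 28620 TPM, a level per unit of transcript length that is scaled to the same sum in every library, Acta1 among the highest. The 16 markers of fibroblasts, vessels, blood, immune cells, Schwann cells, fat, skin and heart summed to 2748 and 2647 TPM, with a median of 2.07 TPM. Krt5, Krt14, Myl7 and Nppa, markers of skin and heart, were at 0 in both libraries. Col1a1 of fibroblasts had 1597 and 1118 TPM and Hbb-bs of red cells 506 and 682 TPM in replicates 1 and 2, so the make-up of the libraries was not identical. In bulk tissue, fewer cells of a type and less RNA per cell cannot be told apart.

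The sequences that most shape the values stand on chromosome 1. There a run of 7 unprocessed pseudogenes on the minus strand (GRCm38, chr1:24611535-24616197, 4663 bases) repeats chromosome M from base 6390 to base 11042 in the same order, a stretch that holds 11 whole mitochondrial genes. A BLAST search of the 37 genes against the annotated transcripts found 11 gene and copy pairs at 95% identity or more, touching 9 of the 37 genes. mt-Atp8 and 5 tRNA genes lie inside the stretch but have no annotated copy. Of the 7 copies on chromosome 1, 5 had no mismatch over the aligned bases. Gm28661 repeats mt-Co2, Gm10925 repeats mt-Atp6 and Gm28437 repeats mt-Co3 over the whole copy. The 3′ ends are shown here because they hold the only bases of each gene that its annotated copy does not cover. The bases of chromosome 1 beyond the annotated copies were not read here. Capitals mark the bases of the mitochondrial gene that the annotated copy lacks. All are from GENCODE M21 transcripts, with the genes on the plus strand of chromosome M and the copies on the minus strand of chromosome 1.
mt-Co2, M:7637-7696: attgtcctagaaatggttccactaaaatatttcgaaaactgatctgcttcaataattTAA
Gm28661, chr1:24614885-24614941: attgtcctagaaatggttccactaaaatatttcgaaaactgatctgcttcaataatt
mt-Atp6, M:8548-8607: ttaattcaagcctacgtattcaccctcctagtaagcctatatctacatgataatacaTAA
Gm10925, chr1:24613974-24614030: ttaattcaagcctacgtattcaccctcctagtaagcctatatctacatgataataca
mt-Co3, M:9331-9390: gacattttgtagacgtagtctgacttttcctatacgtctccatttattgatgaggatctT
Gm28437, chr1:24613189-24613247: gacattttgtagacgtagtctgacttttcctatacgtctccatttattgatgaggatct
The copy of mt-Nd3, Gm28438, differs by T3C, and Gm29216, which repeats the last 483 bases of mt-Co1, differs by A1066T. Positions count from 1 at the 5′ end of the mitochondrial gene, the gene's base comes first, and capitals mark the differing base in the windows printed next.
mt-Nd3, M:9459-9481: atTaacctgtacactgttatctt
Gm28438, chr1:24613097-24613119: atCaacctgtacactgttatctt
In windows of 100 bases along each gene, mt-Co2 had 3 of 585 windows found in no other annotated transcript, mt-Atp6 3 of 582 and mt-Co3 1 of 685. For mt-Nd3 6 of 249 windows were its own, for mt-Nd4l 3 of 198, for mt-Nd4 502 of 1279, for mt-Co1 1000 of 1446 and for mt-Nd2 909 of 939. Both rRNAs, mt-Nd1, mt-Atp8, mt-Nd5, mt-Nd6 and mt-Cytb shared no window with another transcript. A read from a shared window cannot be told apart by sequence from one of the copy.

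Both rRNAs stood far above the mRNAs. mt-Rnr2, the 16S rRNA of the large subunit of the mitochondrial ribosome (M:1094-2675), had 66420.0 and 59902 TPM in replicates 1 and 2, from 3154941 and 2661929 counts. mt-Rnr1, the 12S rRNA of the small subunit (M:70-1024), had 39422 and 34474 TPM. They ranked the third and the fourth of all genes by TPM in each library. Their ratio, mt-Rnr2 over mt-Rnr1, was 1.71 ± 0.0373 (SD, n = 2) per length, although each ribosome holds 1 of each. The RNA spike-in profile named in the labels is one for stranded libraries with reduced ribosomal RNA, so these levels are what was left after any such step. Whether the step acts equally on both rRNAs was not tested.

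Complex IV, cytochrome c oxidase, which passes electrons to oxygen, has 3 mitochondrial subunits, and mt-Co1 was the highest mRNA when each gene was taken alone. mt-Co1, the catalytic subunit (M:5328-6872), had 11820.4 and 10885 TPM in replicates 1 and 2. mt-Co2, the copper-binding subunit that receives electrons from cytochrome c (M:7013-7696), had 92.7 and 82.8 TPM, the lowest of the 13. mt-Co3 (M:8607-9390) had 1152 and 1833 TPM. Their identical copies held most of the reads: Gm28661 had 13418 and 12525 TPM and Gm28437 had 9811 and 8348 TPM. Copies took 99.3% and 99.3% of the counts of mt-Co2 plus its copies, 89.5% and 82.0% for mt-Co3, and 9.55% and 10.8% for mt-Co1. Summed with its copies mt-Co2 reached 13518 and 12615 TPM, and mt-Co3 reached 10963 and 10181 TPM.

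The gene table's own interval of the TPM also set mt-Co2 and mt-Co3 apart, but not mt-Co1. For the genes without a shared window the TPM was about 1.02 times the middle of the quantifier's bounds, as for mt-Rnr1 in both libraries. It was also about 1.02 times for mt-Co1, mt-Nd2, mt-Nd3 and mt-Nd4, which share windows with copies. For mt-Atp6 it was 0.905 and 0.933 times, and for mt-Nd4l 1.11 and 1.104 times, in replicates 1 and 2. Shared windows alone therefore did not go with a shifted level. For mt-Co2 the bounds ran from 471 to 1071 TPM in replicate 1 and from 384 to 1078 TPM in replicate 2, far above the printed level, which was 0.120 and 0.113 times their middle. For mt-Co3 the level was 0.276 and 0.442 times the middle of the bounds. For mt-Co2 and mt-Co3 the split of identical reads in the table was therefore not the centre of the quantifier's own interval.

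In complex V, ATP synthase, both mitochondrial subunits sit in the membrane part that lets protons through. mt-Atp6 (M:7927-8607) had 4378 and 4142 TPM alone, and 14458 and 12959 TPM with Gm10925, which held 69.6% and 67.9% of their joint counts. mt-Atp8 (M:7766-7969) has no annotated copy and had 4258 and 3283 TPM. mt-Cytb (M:14145-15288), the only mitochondrial subunit of complex III, had 6648 and 6091 TPM, and no copy of it was found.

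The 7 mitochondrial subunits of complex I, the entry point of electrons from NADH, were led by mt-Nd1, and all but mt-Nd6 stood above 2000 TPM. mt-Nd1 (M:2751-3707) had 5426 and 4827 TPM, mt-Nd4 (M:10167-11544) 3501 and 3172 TPM, and mt-Nd4l (M:9877-10173) 3497 and 3088 TPM in replicates 1 and 2. mt-Nd5 (M:11742-13565) had 2956 and 2688 TPM, mt-Nd2 (M:3914-4951) 2403 and 2205 TPM, and mt-Nd3 (M:9459-9806) 2388 and 2243 TPM. mt-Nd6, the light-strand gene (M:13552-14070), was the lowest of complex I at 706 and 551 TPM. Although mt-Nd3 and mt-Nd4l have near-identical copies on chromosome 1, the gene table put nearly all reads on the mitochondrial gene: Gm28438 had 0 counts in both libraries and Gm10222 had 4.69 and 0.01. The quantifier's bounds for Gm10222 nevertheless ran from 95.8 to 463 TPM in replicate 1, where its listed TPM was 0.75. Shared sequence of the same kind was thus assigned to the copy for mt-Co2 and to the mitochondrial gene for mt-Nd4l in the same table.

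**Figure D1:**
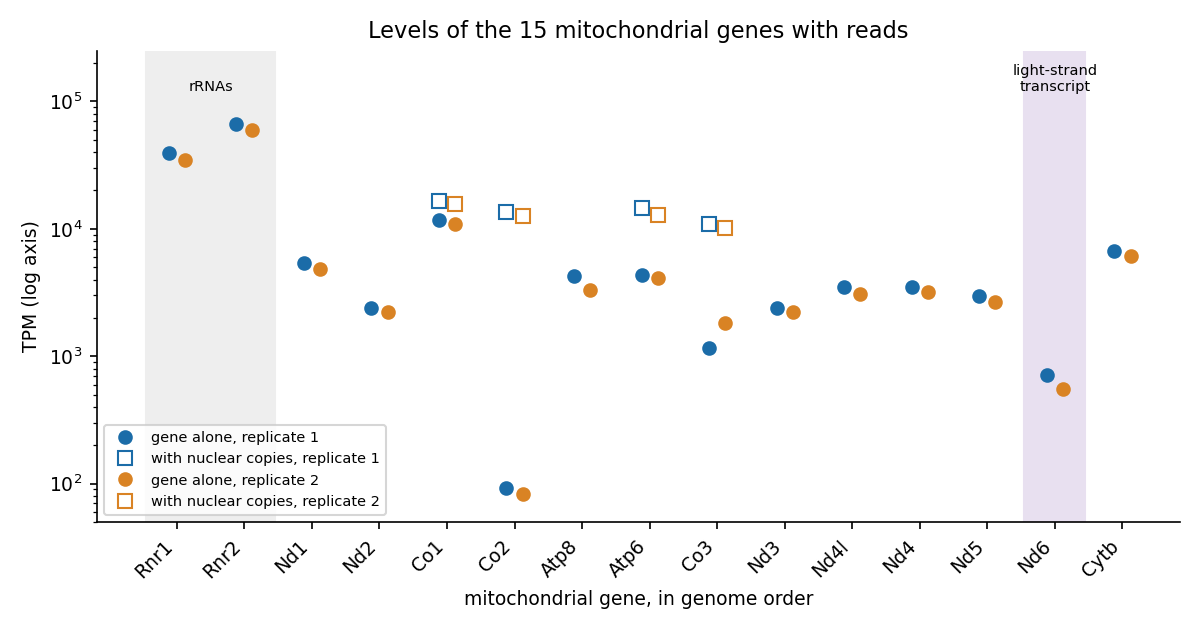
TPM on a log axis for the 15 mitochondrial genes with reads, in genome order, in replicate 1 (blue) and replicate 2 (orange); filled circles are the gene alone and open squares the gene with its annotated nuclear copies, drawn where these add over 5%. mt-Co2 moves to 13518 and 12615 TPM with copies, against 92.7 and 82.8 TPM alone. The open squares of mt-Co1 sum TPM over a copy of part of the gene and so lie too high.

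With copies added, the order of the mRNAs in the gene table was led by mt-Co1, mt-Atp6, mt-Co2 and mt-Co3, then mt-Cytb, mt-Nd1, mt-Atp8, mt-Nd4, mt-Nd4l, mt-Nd5, mt-Nd3, mt-Nd2 and mt-Nd6. The libraries' ranges overlapped between mt-Atp6 and mt-Co2, between mt-Atp8 and mt-Nd4, between mt-Nd4 and mt-Nd4l and between mt-Nd3 and mt-Nd2, so those neighbours are not separated. The lead of mt-Co1 is not secure either, since the copies on it cover part of the gene. As joint counts per kilobase of the mitochondrial gene, mt-Co1 had 391754 and mt-Atp6 394332 in replicate 1, while mt-Co1 had 342151 and mt-Atp6 330709 in replicate 2. In the second quantification with copies added mt-Co2 led, at 19899 and 18920.4 TPM, before mt-Co1 at 18296 and 17175 TPM.

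**Figure D2:**
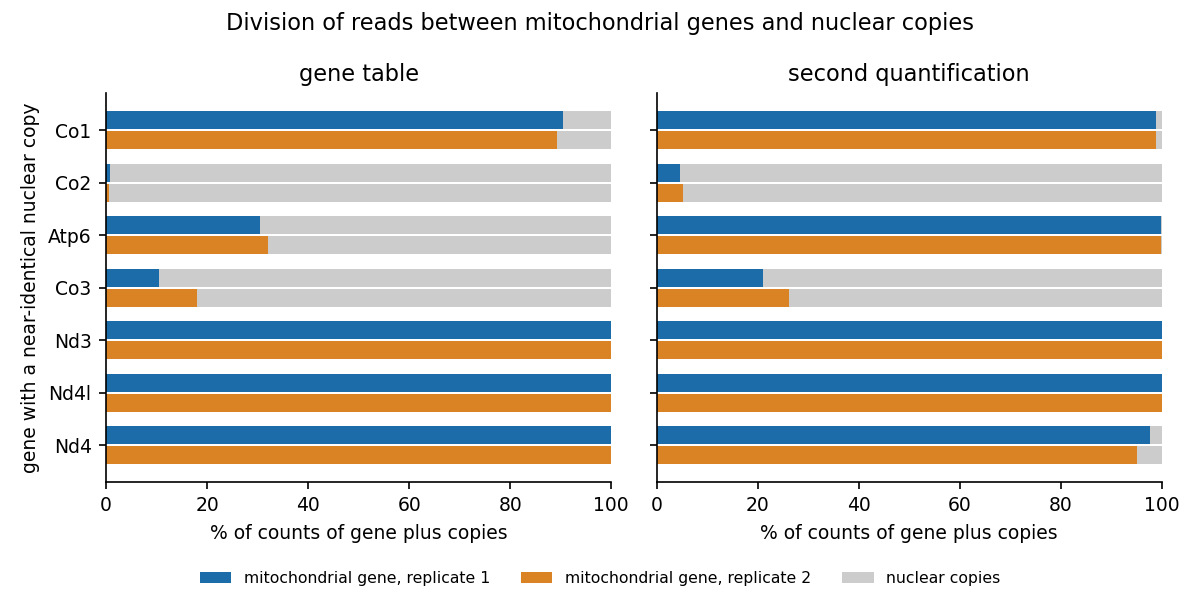
Percent of the joint counts of a mitochondrial gene and its near-identical nuclear copies that went to the mitochondrial gene (coloured by library) or to the copies (grey), in the gene table and in the second quantification, for the 7 genes with copies on chromosome 1. Copies of mt-Co2 held 99.3% of the counts in the gene table; copies of mt-Atp6 held 69.6% and 67.9% there and 0.0716% and 0.0615% in the second quantification.

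By class, the 37 genes took 15.5% and 13.9% of all TPM and 14.0% and 12.9% of all counts in replicates 1 and 2. With copies added they took 19.3% and 17.4% of TPM. Of mitochondrial counts, rRNAs made up 73.9 ± 0.442% and mRNAs 26.1 ± 0.442% (SD, n = 2), and the mRNA share was 34.3 ± 0.395% with copies added. Per length, mRNAs made up 32.0 ± 0.415% of mitochondrial TPM alone and 45.5 ± 0.431% with copies. Averaged per gene, the rRNAs were 13.8 ± 0.263 times as high as the mRNAs alone and 7.80 ± 0.136 times as high with copies. Among protein-coding genes, the 13 mitochondrial mRNAs took 9.14 ± 0.613% of TPM alone and 15.1 ± 0.967% with copies (SD, n = 2). The TPM values with copies sum the copy of part of mt-Co1 in full. The TPM shares with copies therefore lie somewhat too high, and the ratio of rRNAs to mRNAs with copies too low. The difference between counting a gene alone and with its copies was larger than the spread between the libraries for each of these shares and ratios.

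All 22 tRNAs, 14 on the heavy-strand and 8 on the light-strand transcript, were listed at 0 in both libraries and both quantifications. They carry each amino acid to the mitochondrial ribosome. The light-strand set is mt-Tq, mt-Ta, mt-Tn, mt-Tc, mt-Ty, mt-Ts1, mt-Te and mt-Tp. The shortest and the longest are shown because their length decides what the files can say about the class. mt-Ts2 is a serine tRNA (M:11613-11671, plus strand) and mt-Tl1 a leucine tRNA (M:2676-2750, plus strand).
mt-Ts2: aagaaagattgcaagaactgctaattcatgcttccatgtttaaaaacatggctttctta
mt-Tl1: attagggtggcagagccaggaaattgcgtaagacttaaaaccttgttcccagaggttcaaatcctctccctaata
The tRNA genes are 59 to 75 bases long. In the gene table the effective length of a gene, the number of places a read can start, was the annotated length minus 99, and was written as 0 for every tRNA. The same held for 2398 annotated genes in all, none of which had a count. In the second quantification the tRNAs had effective lengths of 21.5 to 25 bases, yet 0 counts. Of 805 other genes of the same length range with 1 transcript, 0 had a count there. The zeros therefore say nothing about tRNA levels, no upper limit is given for them, and light-strand and heavy-strand tRNAs could not be compared.

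The light-strand mRNA was lower than most heavy-strand mRNAs. mt-Nd6, with 9499 and 6937 counts in replicates 1 and 2, stood at 0.202 and 0.176 times the median TPM of the 12 heavy-strand mRNAs, a mean log2 ratio of -2.41 ± 0.139 (SD, n = 2). With copies added to the heavy-strand genes the log2 ratio was -2.83. In the gene table mt-Nd6 was below all 12 except mt-Co2 in each library, and below all 12 once copies were added. In the second quantification its ratio to the median was larger, 0.308 ± 0.0445 (log2 ratio -1.71), and with copies added there it was above mt-Nd4l and mt-Atp8, at 1082 TPM against 23.0 and 0 TPM on average. An exact sign-flip test over 2 libraries cannot give a p under 0.5, so no test is given. mt-Nd6 and mt-Nd5 lie on opposite strands and share 14 bases at their ends. The counting step is not stated to use strand, and without it reads of heavy-strand RNA opposite mt-Nd6 could not be told apart from its own. mt-Co1 was 18.2 ± 2.13 times as high as mt-Nd6 per length.

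The strands also differ in their letters, which makes mt-Nd6 recognisable by eye. Its first 60 bases are rich in T and poor in C, and capitals mark the start codon (M:14011-14070, minus strand).
mt-Nd6: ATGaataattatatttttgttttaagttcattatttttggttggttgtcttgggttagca
The GC skew, (G - C) / (G + C), of mt-Nd6 was 0.65, and that of the 12 heavy-strand mRNAs ran from -0.631 to -0.192. A skew at or below -0.192 occurred in 0.976% of 58784 nuclear protein-coding transcripts, and one at or above 0.65 in 0.0187% of them. The 8 light-strand tRNAs had skews of 0.0435 to 0.385 and the 14 heavy-strand tRNAs skews of -0.238 to 0.2, so these ranges overlap. The 2 rRNAs, at -0.0994 and -0.0857, were nearer to 0 than any heavy-strand mRNA.

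3 pairs of mRNA genes overlap on the heavy-strand transcript, mt-Atp8 with mt-Atp6, mt-Nd4l with mt-Nd4, and mt-Atp6 with mt-Co3, which share 1 base. The first 2 pairs are known to be made as joint mRNAs. Their overlapping ends are shown because they set how reads can be divided, and capitals mark the bases that the upstream gene shares with the downstream one, 43 bases for mt-Atp8 with mt-Atp6 and 7 bases for mt-Nd4l with mt-Nd4.
mt-Atp8, M:7910-7969: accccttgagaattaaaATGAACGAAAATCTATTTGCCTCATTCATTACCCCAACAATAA
mt-Nd4l, M:10114-10173: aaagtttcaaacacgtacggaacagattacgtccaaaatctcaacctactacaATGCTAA
Per length, mt-Nd4l stood at 0.999 and 0.973 times mt-Nd4 in replicates 1 and 2. mt-Atp8 stood at 0.973 and 0.793 times mt-Atp6 alone, but at 0.294 and 0.253 times mt-Atp6 with its copy. As counts per kilobase of annotated length these ratios were 0.717 and 0.699 for mt-Nd4l over mt-Nd4, and 0.178 and 0.153 for mt-Atp8 over mt-Atp6 with its copy. The effective length of mt-Atp8 in the gene table was 105 of 204 bases. A read that crosses from mt-Atp8 into mt-Atp6 fits in neither annotated transcript. How many such reads there were was not tested. 3 mRNAs, mt-Co3, mt-Nd4 and mt-Cytb, end in a T after the last whole codon, as in the mt-Co3 end printed with its copy; in these genes the stop codon is known to be completed by the poly(A) tail.

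The second quantification, made from the same reads by another method, gave a different picture for the short genes and for the genes with copies. mt-Atp8 had 14319 and 10329 counts in the gene table and 0 and 0 in the second quantification. mt-Nd4l had 22177 and 18319 counts in the gene table, against 37 and 46 in the second quantification. mt-Nd3 had 19042 and 16733 counts in the gene table, against 5637 and 5592 in the second, and mt-Nd6 9499 and 6937 against 6518 and 4839. Genes over 1000 bases were close between the methods: mt-Cytb had 1.06 and 1.03 times, and mt-Nd2 1.02 and 1.01 times, as many counts in the gene table as in the second quantification, and all 6 mitochondrial genes of that length, taken alone, lay between 0.911 and 1.06 times. The same order with length held among nuclear protein-coding genes with 1 transcript and a mean of at least 100 counts. Their median log2 ratio of counts, gene table over second, was 2.74 in replicate 1 for 11 genes under 400 bases and 1.01 for 32 genes of 400 to 600 bases. It was 0.24 for 73 genes of 600 to 1000 bases, 0.04 for 194 genes of 1000 to 2000 bases and -0.08 for 527 longer genes.

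**Figure D3:**
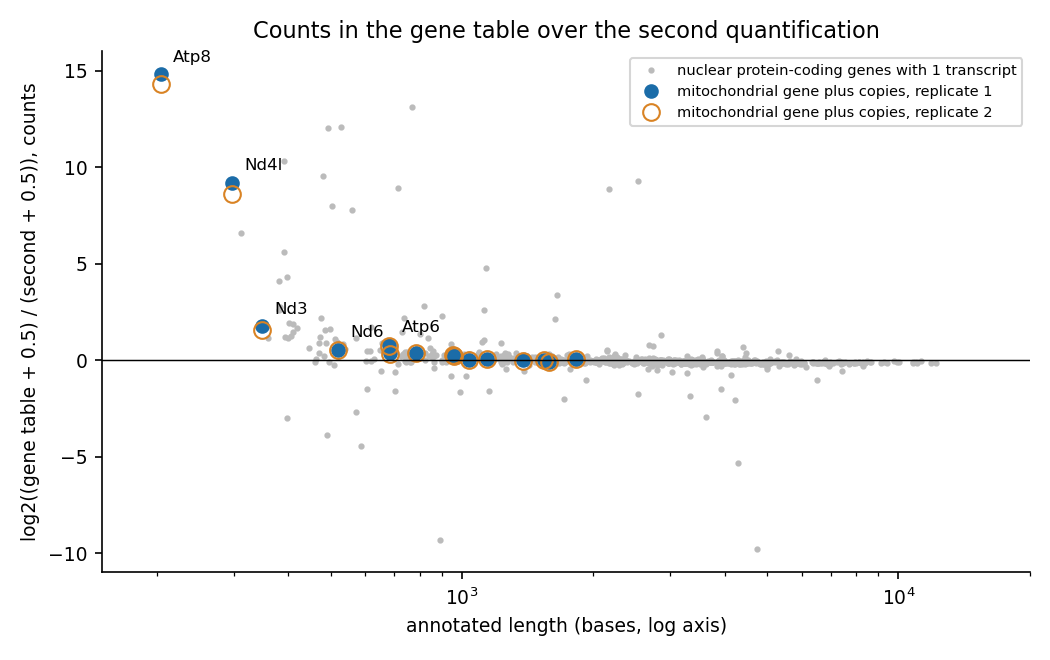
log2 of counts in the gene table over the second quantification (0.5 added to each) against annotated length on a log axis; grey dots are nuclear protein-coding genes with 1 transcript (replicate 1), and circles are the 15 mitochondrial genes with their copies in both libraries. The short genes mt-Atp8, mt-Nd4l and mt-Nd3 lie above 0, as do most grey dots under 400 bases, and genes over 1000 bases lie near 0. The height of mt-Atp8, listed at 0 in the second quantification, depends on the 0.5 added.

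Copies were also divided differently. The second quantification gave mt-Atp6 nearly all of its reads: 152553 and 132689 counts, with 109 and 81.6 on Gm10925, while in the gene table Gm10925 had 186937 and 152984 counts. For mt-Co2 copies held 95.5% and 94.8% of joint counts in the second quantification, and for mt-Co3 78.9% and 73.8%. Gm28439, an identical copy of the first 876 bases of mt-Nd4, had 0 counts in the gene table and 3223 and 6114 in the second quantification. Once copies were added, mt-Co1 had 1.02 and 1.01 times as many counts in the gene table as in the second, but mt-Atp6 1.76 and 1.70 times, mt-Co3 1.30 and 1.27 times and mt-Co2 1.29 and 1.26 times.

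On log2(TPM + 1), limma over 12630 genes called 86.3% of all genes between the quantifications, 81.9% lower and 4.39% higher in the gene table, with a median difference of -0.37, so the count of calls carries little about these genes. Of the 15 mitochondrial genes tested (the 22 tRNAs did not reach the minimum of 1 TPM), 14 were called, 12 lower and 2 higher in the gene table. In CPM, which takes no account of length, limma called 75.9% of 13010 genes. Those called higher in the gene table were 9.19% of the 13010. Of the 15 mitochondrial genes 11 were called, 7 higher and 4 lower, so the balance of directions depends on the unit. On TPM the 2 higher were mt-Nd4l, by 7.11 ± 0.40 (log2 difference of TPM, SD, n = 2), and mt-Atp8, for which no fold is given because it is listed at 0 in the second quantification. The largest negative differences were those of mt-Co2 (-3.41 ± 0.21), mt-Atp6 (-1.81 ± 0.02) and mt-Co3 (-1.19 ± 0.31), and with copies added these were -0.57, -0.13 and -0.41. The other called genes lay between -0.78 (mt-Nd6) and -0.30 (mt-Nd5), on either side of the median of all genes. mt-Nd3 was not called (-0.09 ± 0.12, limma adjusted p = 0.28), and its lower count in the second quantification stood beside a shorter effective length, 249 bases in the gene table and 82.2 and 82.5 bases in the second quantification. The exact test over 2 libraries cannot go below 0.5, and the limma calls rest on a spread pooled over genes.

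Between the libraries, mitochondrial RNA was slightly higher in replicate 1. A two-sided exact binomial test on TMM-scaled counts, which covers counting error only, called 21.5% of 17245 genes with at least 10 counts. Those called higher in replicate 1 were 10.6% of the 17245. Of the 15 mitochondrial genes tested, 13 were called, 12 higher in replicate 1 and mt-Co3 higher in replicate 2. At such depth small differences pass. Among 1473 genes with at least 5000 counts, 61.4% were called, and 21.7% of the 1473 were called higher in replicate 1. The log2 differences, replicate 1 over replicate 2, were small for most of them, 0.09 for mt-Rnr2, 0.14 for mt-Rnr1, 0.06 for mt-Co1 and 0.07 for mt-Cytb. mt-Co2 (0.11, adjusted p = 0.135) and mt-Nd3 (0.03, adjusted p = 0.0987) did not pass in the same exact binomial test with Benjamini-Hochberg adjustment.

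3 genes stood apart from the rest. mt-Co3 differed by -0.73, and with its copy it differed by 0.05, so the larger difference was in the division of reads between gene and copy, 10.5% of which fell to the gene in replicate 1 and 18.0% in replicate 2. mt-Atp8 differed by 0.32 and mt-Nd6 by 0.30 (exact binomial adjusted p = 3.62e-64 and 2.76e-38), beyond the 0.29 that marks the upper 5% of genes with at least 5000 counts. Relative to the summed mitochondrial mRNA counts they still differed, by 0.25 and 0.23, while the other 13 lay between -0.03 and 0.07. In the second quantification mt-Nd6 had 6518 and 4839 counts, again higher in replicate 1. With copies added, 14 of the 15 genes were called, all higher in replicate 1, by 0.04 to 0.32, and mt-Nd3 was not called, at 0.03. Over all 17239 genes tested with copies added, 3701 were called, 1828 of them higher in replicate 1. With a common biological coefficient of variation of 0.119 in place of counting error (edgeR exact test), 0.922% of all genes and 0 of the 15 were called. mt-Co3 came nearest, with an edgeR adjusted p of 0.167, and was the only 1 of the 15 with an unadjusted p under 0.05. That coefficient was estimated from the same 2 libraries that the test sets against each other, so neither test is a replicate check of these differences.

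**Figure D4:**
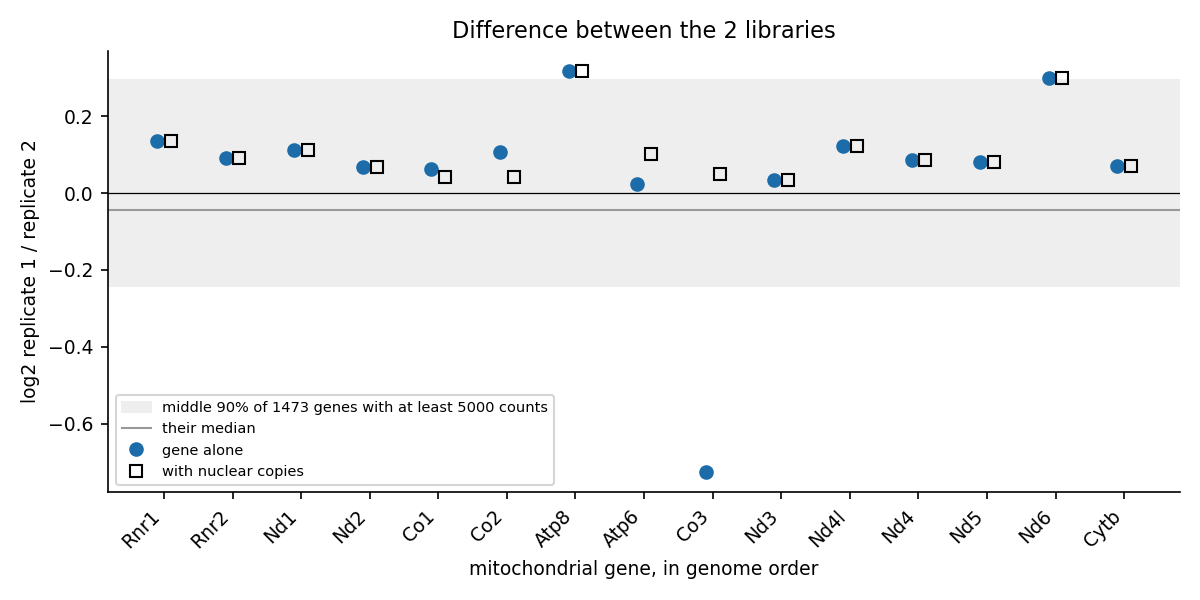
log2 of replicate 1 over replicate 2 in TMM-scaled counts for the 15 mitochondrial genes with reads, alone (blue circles) and with nuclear copies (open squares); the grey band is the middle 90% of 1473 genes with at least 5000 counts and the grey line their median. mt-Co3 lies at -0.73 alone and at 0.05 with its copy, and mt-Atp8 and mt-Nd6 lie just above the band.

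The size of the difference depends on the scale, so it was also set against nuclear genes. With counts scaled to the ERCC RNAs, whose share was lower in replicate 1, the median of all genes moved to 0.30 and 50.8% of all genes were called higher in replicate 1. Under that scaling 14 of the 15 mitochondrial genes were called higher in replicate 1, with mt-Co3 lower. Fewer control reads in a library raise all genes alike, and whether RNA input differed was not tested.

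Complexes I, III, IV and V join mitochondrial to nuclear subunits, and the mitochondrial mRNAs were set against 20 chosen nuclear partners, not against all of them. In complex I the median of the 7 mitochondrial mRNAs was 2956 and 2688 TPM in replicates 1 and 2, against 242 and 238 TPM for 7 nuclear partners, a ratio of 11.7 ± 0.649 (SD, n = 2). All 7, mt-Nd6 included, were above every partner, the highest of which was Ndufb8 at 407 ± 3.22 TPM. In complex III mt-Cytb was 21.9 ± 1.23 times as high as the median of 4 partners, led by Uqcrc1 (493 ± 5.74 TPM), Cyc1 (317 ± 0.735 TPM) and Uqcrc2 (263 ± 3.95 TPM). In complex IV the ratio to 5 partners was 2.34 ± 0.703 for the genes alone and 20.6 ± 1.49 with copies. mt-Co2 alone lay below all 5 partners, whose highest were Cox4i1 (808 ± 3.13 TPM), Cox5b (657 ± 14.0 TPM) and Cox5a (635 ± 15.01 TPM). In complex V the ratio to 4 partners was 5.04 ± 0.456 alone and 10.96 ± 0.921 with copies, and Atp5b, the catalytic subunit, was the highest nuclear partner at 1971 ± 51.6 TPM, below both mt-Atp6 and mt-Atp8. In the second quantification with copies added the ratios were 9.73 ± 0.444, 14.5 ± 1.05, 18.2 ± 0.721 and 6.19 ± 0.203 for complexes I, III, IV and V, with mt-Nd4l and mt-Atp8 below their partners there.

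**Figure D5:**
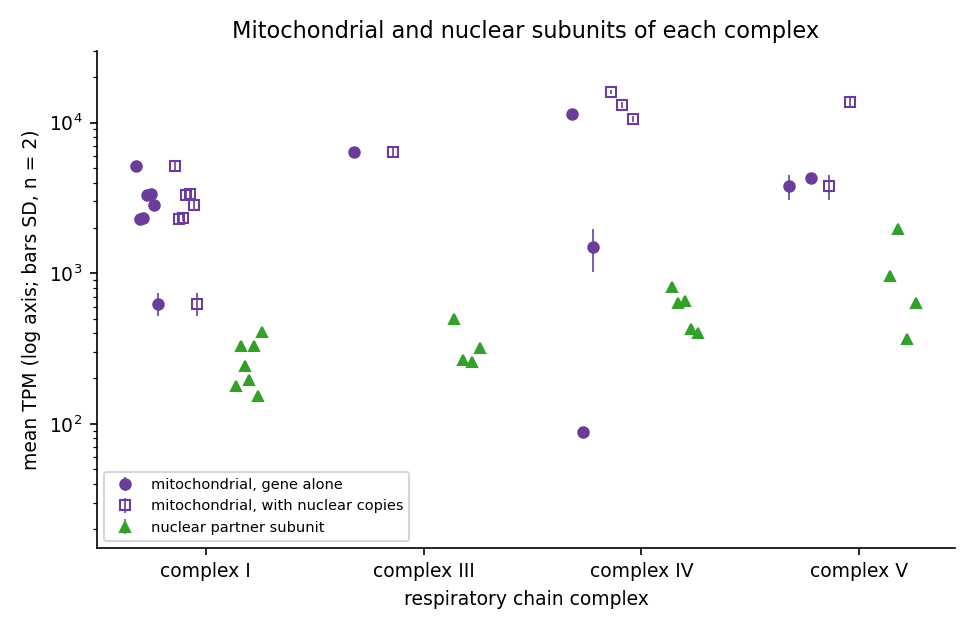
Mean TPM on a log axis (bars are SD, n = 2 libraries) of mitochondrial subunits alone (filled circles), with nuclear copies (open squares) and of nuclear partner subunits (triangles) in complexes I, III, IV and V. With copies added every mitochondrial mRNA lies above every partner of its complex; alone, mt-Co2 at 87.8 ± 6.98 TPM lies below.

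The nuclear partners moved little between the libraries. Of 20 partners, 0 were called higher in replicate 1 and 10 higher in replicate 2 in the exact binomial test. Their median log2 difference was -0.05. Among genes with at least 5000 counts, 61.4% were called in either direction and 21.7% higher in replicate 1. Over all 17245 genes tested, 1829 were called higher in replicate 1 and 1875 in replicate 2. In the second quantification 0 of the 20 were called higher in replicate 1 and 15 in replicate 2, and their median was -0.07. Of all 18600 genes tested there, 1937 were called higher in replicate 1 and 2054 in replicate 2. Scaled to total counts 1 of the 20 was called higher in replicate 1 and 5 in replicate 2. Of all 17245 genes, 2047 and 1558 were called higher in replicates 1 and 2 under that scaling. The edgeR exact test with a common dispersion called 0 of 20, with 0 at an unadjusted p under 0.05. The mitochondrial to nuclear ratio of each complex, which no scaling of libraries changes, was higher in replicate 1 with copies added: 12.2 and 11.3 for complex I, 22.8 and 21.1 for complex III, 21.7 and 19.6 for complex IV and 11.6 and 10.3 for complex V. For the genes alone the complex IV ratio went the other way, at 1.85 and 2.84 in replicates 1 and 2. The ratios of the other complexes were higher in replicate 1 for the genes alone too. With ERCC scaling all 20 partners were called higher in replicate 1, as were 50.8% of all genes, so their direction depends on the scale.

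The nuclear genes that make and mature mitochondrial RNA were lower in the gene table than every mitochondrial mRNA and rRNA. No level was available for tRNAs or mitochondrial DNA, on which some of them act. Of 66 genes in 5 lists, 63 had at least 1 TPM in both libraries. Among 16 genes of transcription and the nucleoid the median was 7.16 TPM, and the highest were Tfam, which packages mitochondrial DNA (22.8 ± 0.382 TPM), the DNA polymerase Polg (13.9 ± 1.37 TPM) and the transcription factor Tfb2m (13.7 ± 1.65 TPM). Among 13 genes of RNA processing the median was 7.51 TPM, with Fastk, whose mitochondrial form is needed for mt-Nd6 mRNA (66.5 ± 0.997 TPM), Hsd17b10, a subunit of mitochondrial RNase P (36.4 ± 0.728 TPM), and Ptcd3 (35.3 ± 0.0354 TPM) the highest. Among 9 genes of RNA stability and decay it was 10.2 TPM. Slirp (69.7 ± 0.0566 TPM) and Lrpprc (29.4 ± 0.361 TPM), which together bind and protect mitochondrial mRNAs, and Grsf1 (52.4 ± 2.65 TPM), an RNA granule protein, led that list. The 14 genes of rRNA modification and ribosome assembly had a median of 5.16 TPM, led by Dhx30 (15.3 ± 1.41 TPM), Trub2 (12.3 ± 0.636 TPM) and Ngrn (10.04 ± 0.495 TPM). The 14 genes of tRNA modification and end formation had a median of 4.46 TPM, led by Nsun2 (17.7 ± 0.106 TPM), Trnt1, which adds CCA ends (10.7 ± 2.76 TPM), and Trmu (8.44 ± 1.69 TPM).

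Of these 66 genes, 1 was called higher in replicate 1 and 5 higher in replicate 2, beside the 21.5% called over all genes. Trmu, which thiolates mitochondrial tRNAs, was the 1 higher in replicate 1 (log2 difference 0.37, exact binomial adjusted p = 0.0215), and it did not pass in the second quantification (0.31, exact binomial adjusted p = 0.0633). The 5 higher in replicate 2, named after their values were seen, were Top1mt (-0.28), Tbrg4 (-0.19), Rexo2 (-0.20), Pde12 (-0.37) and Nsun3 (-0.36). Of these, Nsun3 did not pass in the second quantification (-0.28, exact binomial adjusted p = 0.134), and the others did. With a minimum of 1 count Rexo2 and Nsun3 did not pass (exact binomial adjusted p = 0.0529 and 0.0617). No gene of these lists was called with a difference of 2-fold or more, and with ERCC scaling 34 of the 66 were called higher in replicate 1, a share close to the 50.8% of all genes, and 0 higher in replicate 2. The edgeR exact test with a common dispersion called 0 of the 66, with 0 at an unadjusted p under 0.05.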

How the data were processed

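Total RNA-seq of 2 libraries was used, with 1 gene table and 1 second transcript table each. The build was mm10 with GENCODE M21, per the labels and the deposited description; the names of aligner and quantifiers are not given here by any source. The authors deposited expected counts (estimated reads), which were rounded for count tests, TPM, which the authors scaled to sum alike in every table, and, per the file headers, other columns with the bounds of the quantifier's interval. The second transcript table, which the authors deposited with expected counts and TPM, was summed per gene. In the gene tables, 26248 entries with numeric identifiers, which name no gene, held 3 and 1 counts and were left out.

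Members and lists were chosen with earlier results of these data known. Copies were found with BLAST 2.17.0 (95% identity over at least 200 bases or 80% of the gene) against M21 transcripts. Copies with at least 10 counts in a library were to be named. The text names the 7 on chromosome 1, of which Gm28438 and Gm10222 had fewer. Gm13340 and Gm13341 on chromosome 2, with 95.3 to 128 counts in the gene table, were only summed. The 3 highest genes of each nuclear list were named, except in complexes I and V, where only the highest was. Libraries were compared with an exact binomial test (scipy 1.17.1) on TMM-scaled counts (edgeR 4.0.16, R 4.3.3) for genes with at least 10 counts, and quantifications with limma 3.58.1 on log2(TPM + 1), both adjusted by Benjamini-Hochberg at 0.05 and tested on simulated data. Fold changes on that log scale understate low genes. Reads without molecular identifiers are not independent molecules, so the tests cover counting error, or the spread of these 2 libraries, and no more. Alternatives were DESeq2 1.42.0 size factors, ERCC and total scaling, other minimums and pseudocounts, depth-scaled counts (CPM), copies added, and leaving out a library.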

Additional observations from a re-analysis of the deposited data

How the results depend on the processing

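No paired comparison of conditions was possible because there is 1 group, and the quantifications were compared within each library. The mitochondrial share of all TPM, 14.7%, was 13.4% of counts, 20.3% in the second quantification, 18.3% with copies, and 13.9% to 15.5% with a library left out; mRNAs were 9.14% of protein-coding TPM. The mRNA share of mitochondrial TPM, 32.0%, was 26.1% of counts, 32.5% in the second quantification, 45.5% with copies and 31.7% to 32.3% with a library left out. Both TPM shares with copies lie somewhat too high, since the copy of part of mt-Co1 is summed in full. The rRNA share of mitochondrial counts, 73.9%, was 68.0% of TPM, 65.7% with copies and 73.6% to 74.2% with a library left out. The tRNA share was 0 under all 5 alternatives. The log2 ratio of mt-Nd6 to heavy-strand mRNAs, -2.41, was -2.27 in counts per kilobase, -1.71 in the second quantification, -2.83 with copies, -2.63 against the mean, and -2.51 to -2.31 with a library left out. The log2 ratio of mt-Rnr2 to mt-Rnr1, 0.77, was 0.84 in counts per kilobase, 0.94 in the second quantification and 0.75 to 0.80 with a library left out.

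Calls between libraries went from 13 to 0 of 15 with a common dispersion and stayed between 11 and 15 under the other 8 settings. Under those 8 settings 3422 to 9052 of all 13664 to 24647 genes tested were called. Differences changed sign in the second quantification for mt-Co2 (-0.20), mt-Nd3 (-0.15) and mt-Nd4l (-0.47), with copies for mt-Co3 (0.0505), and as a share of mitochondrial mRNA counts for mt-Nd2 (-0.00069), mt-Co1 (-0.0253), mt-Co2 (-0.0248) and mt-Nd3 (-0.0341); these last 2 settings were chosen after seeing the data. Between quantifications, calls went from 14 to 0 of the genes when no minimum TPM was set (0.511% of 55536 genes called, 13 members at an unadjusted limma p under 0.05), and stayed between 11 and 14 under the other 4. In depth-scaled counts (CPM) differences changed sign for mt-Rnr1 (0.26), mt-Nd1 (0.21), mt-Nd3 (1.64), mt-Nd4 (0.038), mt-Nd5 (0.0578), mt-Nd6 (0.51) and mt-Cytb (0.0452). TPM also reflects the effective lengths, and the median difference over all genes was -0.37 in TPM and -0.10 in CPM. The causes of these sign changes and of the other changes were not tested. The light-strand against heavy-strand tRNA ratio has no value, with all tRNAs at 0. For genes as short as the tRNAs neither table holds a count, so depth does not bear on them.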
